A study of Mus musculus with 4 samples.

Results

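MHC class I presentation was followed through 10 genes in mouse esophageal tumours with and without S100A14. The genes were chosen by name: B2m, H2-K1, H2-D1, Tap1, Tap2, Tapbp, Psmb8, Psmb9, Psmb10 and Nlrc5. All 10 of the 10 genes sought were among the 14157 genes that the deposited table lists, and 9 of them passed the filter on low values. The exception was Psmb9, which reached a scaled value of 1 in a single library and was therefore not tested. The study sequenced total RNA from esophageal tumours of C57BL/6 mice, all induced by 4NQO (4-nitroquinoline 1-oxide), which damages DNA by forming adducts and is carcinogenic. The WT group is wild type (replicates 3 and 6, called WT-3 and WT-6) and the KO group carries the genotype label S100A14 CKO (replicates 1 and 8, called KO-1 and KO-8), with n = 2 in each. The labels give neither age nor sex, neither the promoter nor the cell type behind the deletion, and they do not tie libraries to animals. The p-values thus measure only the spread between these samples, which may be technical.

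Class I molecules show peptides from inside a cell to CD8 T cells and are made by nearly all nucleated cells. Peptides are cut by the proteasome, whose constitutive catalytic subunits can be replaced by the immunoproteasome subunits Psmb8, Psmb9 and Psmb10 when interferon gamma acts on the cell. The transporter made of Tap1 and Tap2 moves peptides into the endoplasmic reticulum, where tapasin (Tapbp) helps load them onto a heavy chain (H2-K1 or H2-D1) paired with beta-2 microglobulin (B2m). NLRC5 is the transactivator of these genes and acts at a promoter module made of S, X and Y boxes, which class II genes also carry and where CIITA acts.

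Depth was 11132019 to 16182109 reads per library. Ribosomal RNA genes took between 47.0% and 76.4% of them. Nuclear protein-coding genes had 1052423 to 2107060 reads, and the rest lay in genes of other types. The fewest coding reads were in KO-8, where the ribosomal share was 50.8%. S100a14 itself had 463 and 347 reads in WT tumours against 0 and 1 in KO-1 and KO-8. Squamous epithelium markers were present in every library, Krt5 for example at scaled values of 1057 to 10079. The sum of the 10 squamous markers was 53840 and 34749 in the WT libraries, 27695 in KO-1 and 5347 in KO-8. KO-8 thus stood apart in this sum, though not in every marker of the list. Trp63 had 235 and 407 in WT-3 and WT-6, 244 in KO-1 and 241 in KO-8. Fold changes of the members and list medians that KO-8 moves are therefore also given without that library.

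The promoters of the class I chains are shown because they carry the module on which NLRC5 acts, and the promoter of Tap1 because it is shared with Psmb9, whose values were ordered differently from those of Tap1 across the tumours. RefSeq windows of 300 bases (GRCm38.p6, 250 bases before to 50 after the start) were found for 8 of the 10 genes and not for Tap2 and Nlrc5. Capitals mark TGACG, the core of the X2 box, CCAAT, the core of the Y box, and 3 spaced motifs: an NF-kB type (GGGA, 3 bases, CCC), an interferon-stimulated element type (GAAA, 2 bases, GAAA) and an interferon consensus type (AGTTTC, 2 bases, TTC). Each was searched on both strands. The windows lie at chr2:122147437-122147736 on the plus strand for B2m, chr17:34000284-34000583 on the minus strand for H2-K1, chr17:35262844-35263143 on the plus strand for H2-D1 and chr17:34187306-34187605 on the plus strand for Tap1.
B2m: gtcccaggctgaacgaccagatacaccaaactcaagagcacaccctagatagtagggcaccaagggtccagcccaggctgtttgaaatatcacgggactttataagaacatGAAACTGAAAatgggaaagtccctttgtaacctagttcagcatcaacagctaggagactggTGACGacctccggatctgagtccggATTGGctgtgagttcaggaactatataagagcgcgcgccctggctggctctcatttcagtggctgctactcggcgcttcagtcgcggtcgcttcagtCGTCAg
H2-K1: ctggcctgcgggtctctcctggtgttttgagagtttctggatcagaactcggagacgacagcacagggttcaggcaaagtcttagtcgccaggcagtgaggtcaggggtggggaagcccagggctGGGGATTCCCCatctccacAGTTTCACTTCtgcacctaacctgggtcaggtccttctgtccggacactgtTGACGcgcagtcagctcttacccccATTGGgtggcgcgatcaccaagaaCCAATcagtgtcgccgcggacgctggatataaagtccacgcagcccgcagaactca
H2-D1: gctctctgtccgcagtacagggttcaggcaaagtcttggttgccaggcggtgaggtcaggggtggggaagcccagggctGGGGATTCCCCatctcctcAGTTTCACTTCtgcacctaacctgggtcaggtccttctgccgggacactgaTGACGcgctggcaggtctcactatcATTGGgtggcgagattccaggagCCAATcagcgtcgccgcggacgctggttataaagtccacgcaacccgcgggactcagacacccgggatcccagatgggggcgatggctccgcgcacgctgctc
Tap1: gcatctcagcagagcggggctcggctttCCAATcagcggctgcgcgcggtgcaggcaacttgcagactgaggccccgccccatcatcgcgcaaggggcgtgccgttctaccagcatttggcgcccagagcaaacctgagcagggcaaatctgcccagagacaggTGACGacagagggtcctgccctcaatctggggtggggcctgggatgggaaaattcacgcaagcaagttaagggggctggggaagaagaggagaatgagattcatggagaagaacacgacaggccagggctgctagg

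In the B2m, H2-K1 and H2-D1 windows TGACG was followed after exactly 20 bases by ATTGG, the Y box read on the other strand. This arrangement was found in 31 of the 32851 mouse promoter windows, or 0.0944%. TGACG alone was in 20.8% of windows and CCAAT in 37.4%. The H2-K1 and H2-D1 windows were 89.7% identical over 242 aligned columns. Both held the NF-kB type, present in 5.55% of all windows and here read on both strands of 1 overlapping stretch, and the interferon consensus type, present in 0.527%. B2m held the interferon-stimulated element type, present in 3.44%, and neither of the other pair. The Tap1 window shares 275 bases with that of Psmb9, which is transcribed the other way, and it held TGACG and CCAAT in another arrangement. A GAS-type motif (TTC, 3 bases, GAA, in 8.30% of windows) was found in the Psmb8 window alone among the members. Such matches describe letters and show no binding.

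The class I chains were the most abundant members by scaled value per kilobase of exon. B2m averaged 58.6 per kilobase over the 4 libraries, H2-K1 40.6 and H2-D1 33.2. The ranges over libraries were 34.3 to 89.4 for B2m, 27.1 to 70.4 for H2-K1 and 23.02 to 44.1 for H2-D1, so the order of these 3 was not larger than their spread. All the other members were lower, from Tapbp at 5.87 and Psmb10 at 4.74 through Nlrc5 at 2.72, Tap2 at 1.75, Tap1 at 1.66 and Psmb8 at 1.64 to Psmb9 at 0.423. The ranges of Tap1, Tap2 and Nlrc5 overlapped one another. Among the constitutive catalytic subunits, Psmb5 averaged 42.6 per kilobase, Psmb6 18.1 and Psmb7 8.41. These levels use GENCODE exon lengths, and no library was compared with another through them.

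The comparison of KO with WT asked whether the loss of S100A14 goes with a change in these genes. No member passed the threshold: 0 of the 9 tested members had a limma adjusted p under 0.05, against 0.00813% of all 12304 genes tested, where S100a14 was the sole gene called. At an unadjusted p under 0.05 there were also 0 members, against 5.25% of all genes. By fold change 6 members were lower and 3 higher in KO, with a median log2 fold change of −0.22, against 52.5% of all genes lower and a median of −0.03. Without KO-8 the counts were the same, 6 lower and 3 higher, but Tap2 (0.13) and Psmb10 (−0.31) changed sides. With libraries scaled to their total protein-coding reads, which put the median of all genes at 0.27, 7 members were higher and 2 lower. The groups did not overlap for 2 of the 9 members, both lower in KO, against 19.3% of all genes lying lower in KO without overlap and 33.7% not overlapping in either direction. For 8 of the 9 members, at least 1 of the gaps between libraries of the same genotype was larger than the difference between genotypes, as it was for 78.7% of all genes. The number of members called stayed 0 in each of the 12 alternatives run, including each library left out, edgeR's quasi-likelihood test (0% of all genes called) and DESeq2 (0.406%). A test of 2 against 2 libraries has little power, and a p that misses the threshold does not show that the genes were alike.

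**Figure D1:**
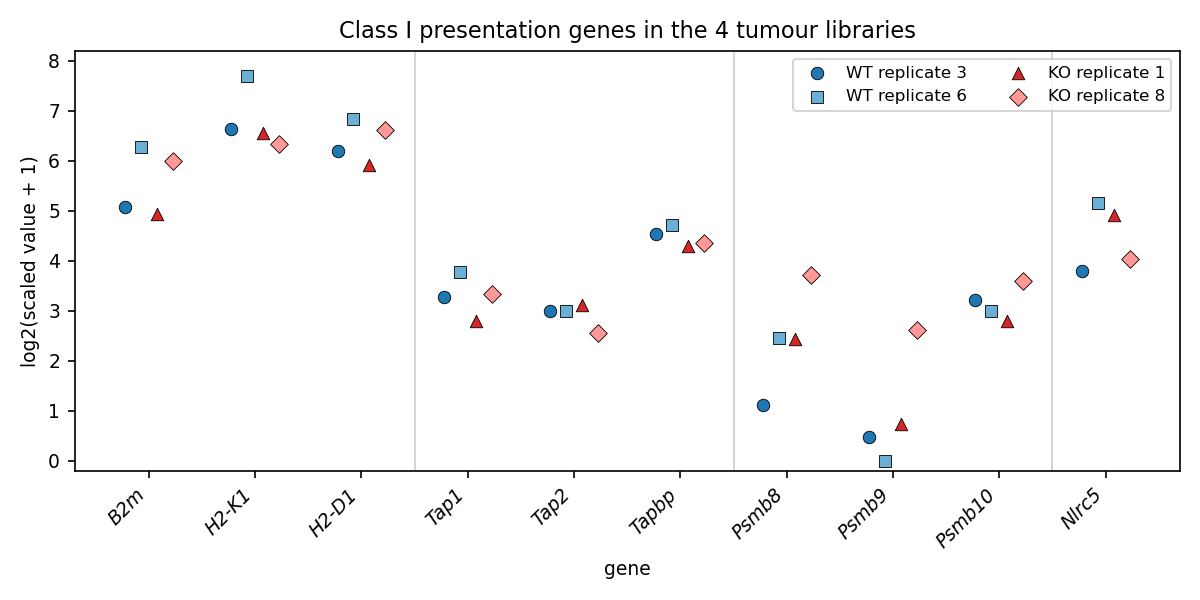
Scaled values of the 10 genes on a log2(value + 1) axis, 1 point per library (blue WT, red KO), with vertical lines between chains, loading, immunoproteasome and transactivator. The class I chains of the 2 WT libraries lie apart from each other, and Psmb8 and Psmb9 are highest in KO-8.

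B2m, the light chain of every class I molecule, had scaled values of 32.6 and 76.9 in WT-3 and WT-6, 29.5 in KO-1 and 62.6 in KO-8. The high and the low library of each genotype thus lay side by side, and the groups overlapped. The WT mean was 54.8 ± 31.3 and the KO mean 46.0 ± 23.4 (SD, n = 2). The log2 fold change was −0.22 (SE 0.58, limma adjusted p = 0.998), with a 95% interval of −1.59 to 1.16. It was −0.82 without WT-3 and −0.75 without KO-8, and it turned to 0.39 without WT-6, to 0.31 without KO-1 and to 0.13 with libraries scaled to total protein-coding reads.

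H2-D1, a classical heavy chain, had 71.8 and 114 in WT-3 and WT-6, 59.4 in KO-1 and 97.4 in KO-8. Its libraries fell in the same order as those of B2m, WT-6 first, then KO-8, WT-3 and KO-1. Its log2 fold change was −0.25 (SE 0.47, limma adjusted p = 0.997), which was −0.57 without WT-3 and −0.60 without KO-8. It turned to 0.08 without WT-6, to 0.11 without KO-1 and to 0.11 with libraries scaled to total protein-coding reads. Tap1 shared that order, which was picked after these values were seen. With B2m and H2-D1 included, 3 of the 10 members showed it, as did 3.06% of all genes tested.

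H2-K1, the other classical heavy chain, was the member furthest below WT. Its scaled values were 98.2 and 207 in WT tumours against 92.6 and 79.6 in KO-1 and KO-8. Both KO libraries lay below both WT libraries, but KO-1 was close to WT-3, and WT-6 was 2.11 times WT-3. The WT mean was 1.77 times the KO mean (153 ± 76.8 against 86.1 ± 9.16, SD, n = 2). The log2 fold change was −0.73 (SE 0.49, limma adjusted p = 0.952), with a 95% interval of −1.88 to 0.43. It was −1.26 without WT-3, −0.19 without WT-6, −0.83 without KO-1 and −0.62 without KO-8. In the fit without KO-8, B2m (−0.75) and Tap1 (−0.73) lay further below WT than H2-K1. Within each library, H2-K1 was 1.37 and 1.82 times H2-D1 in WT-3 and WT-6, 1.56 times in KO-1 and 0.817 times in KO-8. KO-8 was the one library with less H2-K1 than H2-D1, a ratio chosen for description after its values were seen. Of the 50-base stretches, 9.63% in H2-K1 transcripts and 12.8% in H2-D1 transcripts also occur in transcripts of other genes of any kind. For H2-D1 these were 168 genes. The gene sharing most was H2-Q10 for H2-K1 (5.18%) and H2-Q1 for H2-D1 (5.87%). Such sharing was not particular to heavy chains, as it was 23.2% for Tapbp, 11.9% for Psmb8 and 11.6% for Tap2. The sources used here do not say how reads from shared stretches were assigned, so the values of single heavy chain genes are uncertain.

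**Figure D2:**
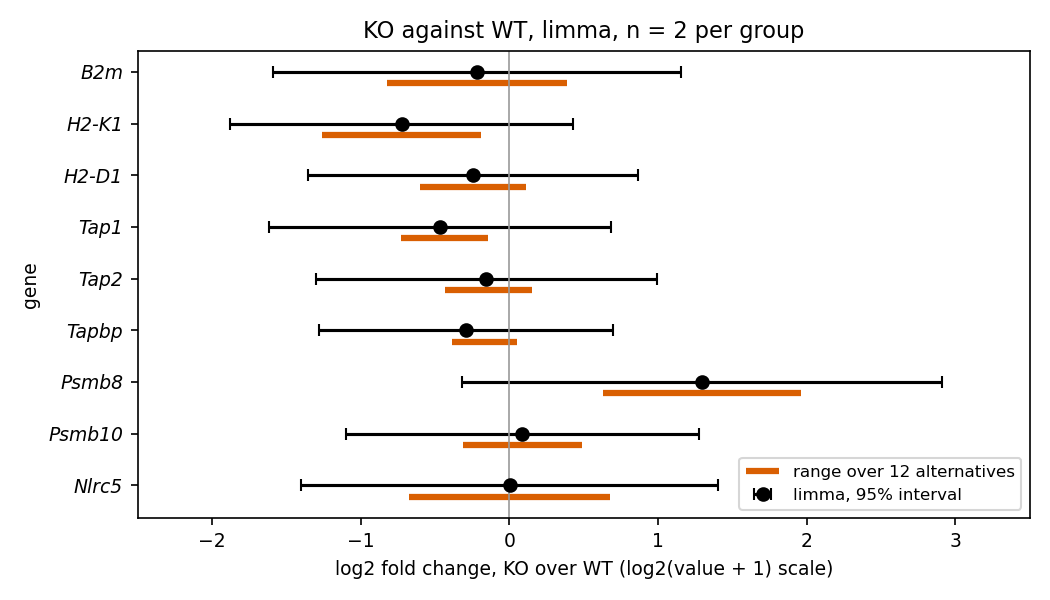
Log2 fold change of KO over WT for the 9 tested genes, with the 95% interval of limma in black and the range over 12 alternatives in orange. All 9 intervals include 0, and Psmb8 lies furthest from it at 1.29.

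The genes of peptide transport and loading had fold changes below 0 that did not pass the test, and those of Tap2 and Tapbp were above 0 (0.15 and 0.050) with libraries scaled to total protein-coding reads. Tap1, one chain of the peptide transporter, had scaled values of 8.69 and 12.7 in WT-3 and WT-6 against 5.94 and 9.02 in KO-1 and KO-8, on 27 to 45 reads. The groups overlapped, since KO-8 lay above WT-3. Its log2 fold change was −0.47 (SE 0.49, limma adjusted p = 0.982). It was −0.72 without WT-3, −0.22 without WT-6, −0.20 without KO-1, −0.73 without KO-8 and −0.14 with libraries scaled to total protein-coding reads.
Tap2, the other chain, had 6.95 and 6.99 in WT-3 and WT-6, 7.70 in KO-1 and 4.90 in KO-8. The KO libraries lay on either side of the WT pair, and the log2 fold change of −0.15 was −0.43 without KO-1 and turned to 0.13 without KO-8. Tapbp, the tapasin that bridges the transporter and the heavy chain, had 22.004 and 25.1 in WT tumours against 18.7 and 19.3 in KO tumours. It was the most even member across libraries, and both KO values lay below both WT values. Its log2 fold change was −0.29 (SE 0.42, limma adjusted p = 0.997, 95% interval −1.28 to 0.70), and −0.32 without KO-8. Exon overlaps limit both genes. The antisense gene Gm19412 covers 24.9% of Tapbp exons and Zbtb22, on the same strand, 4.11%. Gm15821, on the other strand, covers 14.1% of Tap2 exons.

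The immunoproteasome subunits had fold changes above 0, unlike the chains, but neither of the 2 tested passed, and all 3 were highest in KO-8. Psmb8, the chymotrypsin-like subunit that replaces Psmb5, had scaled values of 1.16 and 4.45 in WT-3 and WT-6, 4.40 in KO-1 and 12.1 in KO-8, from 6, 14, 20 and 47 reads. KO-1 was level with WT-6, so the groups overlapped, and KO-8 was above the others. The KO mean was 2.94 times the WT mean (8.25 ± 5.45 against 2.80 ± 2.33, SD, n = 2). The log2 fold change was 1.29 (SE 0.69, limma adjusted p = 0.926), with a 95% interval of −0.32 to 2.91, and it moved with each library: it was 0.63 without WT-3, 0.65 without KO-8, 1.94 without KO-1 and 1.96 without WT-6. An exon overlap with the antisense gene Gm20496 covers 14.7% of Psmb8 exons.

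Psmb9, which replaces Psmb6, had 2 and 0 reads in WT-3 and WT-6, 3 in KO-1 and 20 in KO-8. The scaled values were 0.386, 0, 0.660 and 5.15, and a floor of 3 reads equals 0.579 to 0.953 in these libraries. Both KO libraries lay above both WT libraries, yet KO-8 alone was above the floor. The KO read rate was 11.4 times the WT rate with an exact 95% counting interval of 2.81 to 99.4, and in KO-1 alone it was 2.75 times with an interval of 0.315 to 32.9. These intervals cover counting error only, not the spread between tumours. Psmb9 and Tap1 overlap by 212 bases of their first exons, 5.79% of the exon length of Psmb9, and the sources used here do not say whether counting used strand. Tap1, across the shared promoter printed above, was 9.02 in KO-8 and 12.7 in WT-6, so the high Psmb9 of KO-8 had no counterpart there.

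Psmb10, which replaces Psmb7, had 8.30 and 6.99 in WT-3 and WT-6, 5.94 in KO-1 and 11.1 in KO-8. The KO libraries lay on both sides of the WT libraries. Its log2 fold change was 0.09 (SE 0.51, limma adjusted p = 0.998), and it was 0.20 without WT-3, −0.023 without WT-6, 0.49 without KO-1 and −0.31 without KO-8.

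Set against the constitutive subunits of the same library, a ratio that does not depend on how libraries were scaled, the immunoproteasome was highest in KO-8. The sum of Psmb8, Psmb9 and Psmb10 was 8.78% and 9.84% of the sum of Psmb5, Psmb6 and Psmb7 in WT-3 and WT-6, 12.7% in KO-1 and 32.0% in KO-8. The KO libraries lay above the WT libraries, by a small step in KO-1 and a large one in KO-8. The mean log2 ratio was −3.43 ± 0.12 in WT and −2.31 ± 0.94 in KO (SD, n = 2), a difference of 1.12 that was 0.45 without KO-8. An exact two-sided permutation test gave p = 0.333, the smallest that 2 against 2 libraries allow. The pairs differed: Psmb8 was 2.53% and 11.0% of Psmb5 in WT tumours against 14.1% and 33.8% in KO tumours, while Psmb10 to Psmb7 overlapped, at 36.4% and 19.5% in WT and 23.1% and 36.1% in KO. Psmb9 to Psmb6 was 0.885% and 0% in WT and 2.22% and 23.3% in KO. The denominators differed between libraries too. Psmb6 had 43.6 and 40.03 in WT tumours against 29.7 and 22.2 in KO tumours, and Psmb5 had 45.7 and 40.4 against 31.2 and 35.8.

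**Figure D3:**
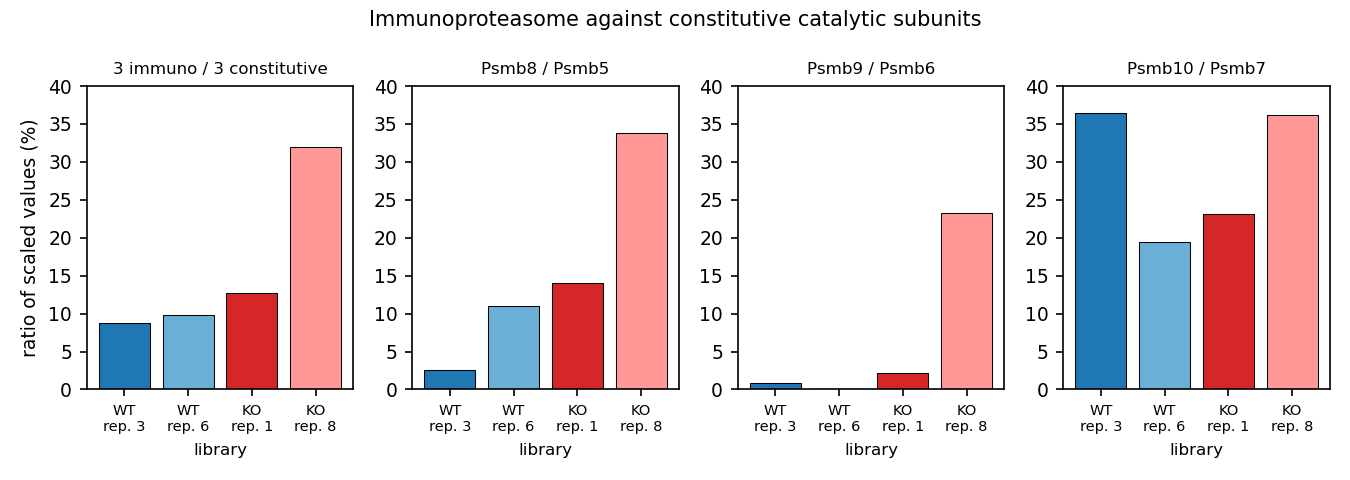
Ratio of scaled values, in percent, of the 3 immunoproteasome subunits to the 3 constitutive catalytic subunits and of each pair, 1 bar per library (blue WT, red KO). The summed ratio is 8.78% to 12.7% in 3 libraries and 32.0% in KO-8, and Psmb10 to Psmb7 shows no such step.

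Nlrc5, the transactivator, had scaled values of 12.9 and 34.6 in WT-3 and WT-6, 29.2 in KO-1 and 15.5 in KO-8. The library gap was 2.68-fold in WT and 1.89-fold in KO, and the groups overlapped fully. Its log2 fold change was 0.00 (SE 0.60, limma adjusted p = 0.9995, 95% interval −1.399 to 1.404), with 0.44 without KO-8 and −0.44 without KO-1. WT-6 was highest for Nlrc5 as for B2m, H2-K1, H2-D1, Tap1 and Tapbp, 6 of the 10 members, against 19.9% of all genes tested. This library was picked for the count after the values were seen. H2-K1 and Tap2 had, like Nlrc5, more in WT-6 than in WT-3 and more in KO-1 than in KO-8, although the step in WT was small for Tap2. B2m and H2-D1 had less in KO-1 than in KO-8 and so did not follow Nlrc5 in the KO libraries.

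Markers of leukocytes were also highest in KO-8, as Psmb8 and Psmb9 were. Pan-leukocyte markers were higher in KO for 9 of 9 tested members, 7 of them without overlap, against 14.5% of all genes with both KO libraries above both WT libraries. Their summed scaled value was 15.6 to 24.8 in WT, 34.1 in KO-1 and 134 in KO-8. Macrophage markers were higher for 12 of 12, 10 of them without overlap, and summed to 41.9 and 52.1 in WT, 98.5 in KO-1 and 236 in KO-8. Fibroblast markers summed to 123 and 313 in WT, 119 in KO-1 and 940 in KO-8, and skeletal muscle markers to 3.47 and 9.85 in WT tumours against 16.1 and 180 in KO tumours. Without KO-8 the median log2 fold change was 0.65 rather than 1.33 for leukocyte markers, 0.88 rather than 1.48 for macrophage markers, 0.84 rather than 2.21 for skeletal muscle markers, −0.55 rather than −1.59 for squamous markers and −0.65 rather than 0.69 for fibroblast markers. Endothelial markers, by contrast, were lower for 5 of 6 (median −0.64), and for 6 of 6 without KO-8 (median −0.70). None of these marker genes passed limma over all genes tested. DESeq2 called 1 squamous marker (Krt4), against 0.406% of all genes. The authors' deposited table called 2 skeletal muscle markers (Acta1 and Tnnt3), against 0.749% of the listed genes. The genes called were named after their values were seen. In bulk tumours, fewer cells of a type and less RNA per cell cannot be told apart, and the part of these cells in the immunoproteasome values was not tested.

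Of the 14 markers of CD8 T and NK cells, the cells that read class I, only 2 were listed. Gzma had 0 and 4 reads in WT tumours and 2 in each KO tumour, and Trac had 4 reads in KO-8 and 0 in the others. Cd3e, Cd8a and Cd8b1 are not among the listed genes. Ifng was not listed either. The 2 listed markers thus had at most 4 reads in any library, too few to compare these cells between the groups. At this depth, markers that are not listed are no evidence that the cells were absent. Of the 7 markers of B and plasma cells, Jchain, which links IgA and IgM subunits, had 36 reads in KO-1, 31 in KO-8 and 0 in either WT library, which DESeq2 and the authors' deposited table called and limma and edgeR did not. Xbp1, which epithelium also expresses, was lower in KO.

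Genes of interferon gamma signalling were higher in KO for 9 of the 10 tested, with a median log2 fold change of 0.47. Limma, edgeR, DESeq2 and the authors' deposited table called 0 of them. Only 1, Jak2, had an unadjusted limma p under 0.05, against 5.25% of all genes. Jak2, a kinase of the interferon gamma receptor, also had the largest fold change among them, with 12.9 and 10.5 in WT tumours against 29.03 and 40.7 in KO tumours. Its log2 fold change was 1.48 (SE 0.44, limma adjusted p = 0.910), and its groups did not overlap. Both KO libraries lay above both WT libraries for 5 of the 10 genes, Jak2 included, against 14.5% of all genes. Irf1, a transcription factor induced by interferon gamma that acts on class I promoters, had 15.6 and 9.21 in WT, 14.95 in KO-1 and 32.7 in KO-8. Irf1 was thus within the WT range in KO-1 and above it in KO-8 alone. Without KO-8, 6 of the 10 genes were higher and the median was 0.17.

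Targets of interferon gamma outside class I presentation were higher in KO for 7 of the 7 tested (median 0.98), and for 4 of 7 without KO-8 (median 0.32). Limma and edgeR called 0 of them, with 2 at an unadjusted limma p under 0.05, against 5.25% of all genes. DESeq2 called 1, Iigp1, against 0.406% of all genes. In the authors' deposited table, which called 0.749% of the listed genes, Iigp1 was also called, with an adjusted p-value of 0.00461 and a log2 fold change of 6.43. Their sum over 9 listed genes was 7.53 and 26.7 in WT, 21.3 in KO-1 and 118 in KO-8. Iigp1, an interferon-inducible GTPase, had 1 and 0 reads in WT, 6 in KO-1 and 92 in KO-8. For Gbp2, which encodes another such GTPase, scaled values were 1.35 and 4.77 in WT, 6.82 in KO-1 and 38.4 in KO-8. These were the 2 tested targets with both KO libraries above both WT libraries, against 14.5% of all genes, and the other 5 tested overlapped. Cd274, which encodes the checkpoint ligand PD-L1, had 0.965 and 1.59 in WT, 0.880 in KO-1 and 9.53 in KO-8. Cxcl9, a T cell chemokine, had 0 and 1 reads in WT, 0 in KO-1 and 34 in KO-8. The sum of the interferon gamma targets, Psmb8 and Psmb9 were thus highest in KO-8, where B2m and H2-D1 stayed below WT-6.

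MHC class II genes had higher values in KO, where the class I chains did not, though the difference between the classes was not tested. All 7 tested class II genes had fold changes above 0 (median 1.33, and 1.46 without KO-8). In 6 of them both KO libraries lay above both WT libraries, against 14.5% of all genes. Limma and edgeR called 0 of the 7, with 4 at an unadjusted limma p under 0.05, against 5.25% of all genes. DESeq2 (0.406% of all genes called) and the authors' deposited table (0.749% of the listed genes) each called 2, Cd74 and H2-Aa. The authors' deposited table gives adjusted p-values of 0.00900 for Cd74 and 0.0174 for H2-Aa. Cd74, the class II invariant chain, had 8.88 and 8.90 in WT tumours against 50.8 and 47.2 in KO tumours, and H2-Aa, a class II alpha chain, had 2.32 and 2.22 against 12.97 and 22.4. Both were thus several times higher in each KO library than in either WT library. The listed class II genes summed to 26.6 and 32.7 in WT tumours against 111 and 106 in KO tumours. Cd74 was 0.272 and 0.116 times B2m in WT-3 and WT-6, 1.72 times in KO-1 and 0.753 times in KO-8. This ratio of scaled values within a library was higher in both KO libraries than in either WT library. Ciita, the class II counterpart of Nlrc5, had 8 reads in KO-1, 5 in KO-8 and 0 in either WT library, whereas Nlrc5 had 67 and 109 in WT tumours against 133 and 60 in KO tumours.

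**Figure D4:**
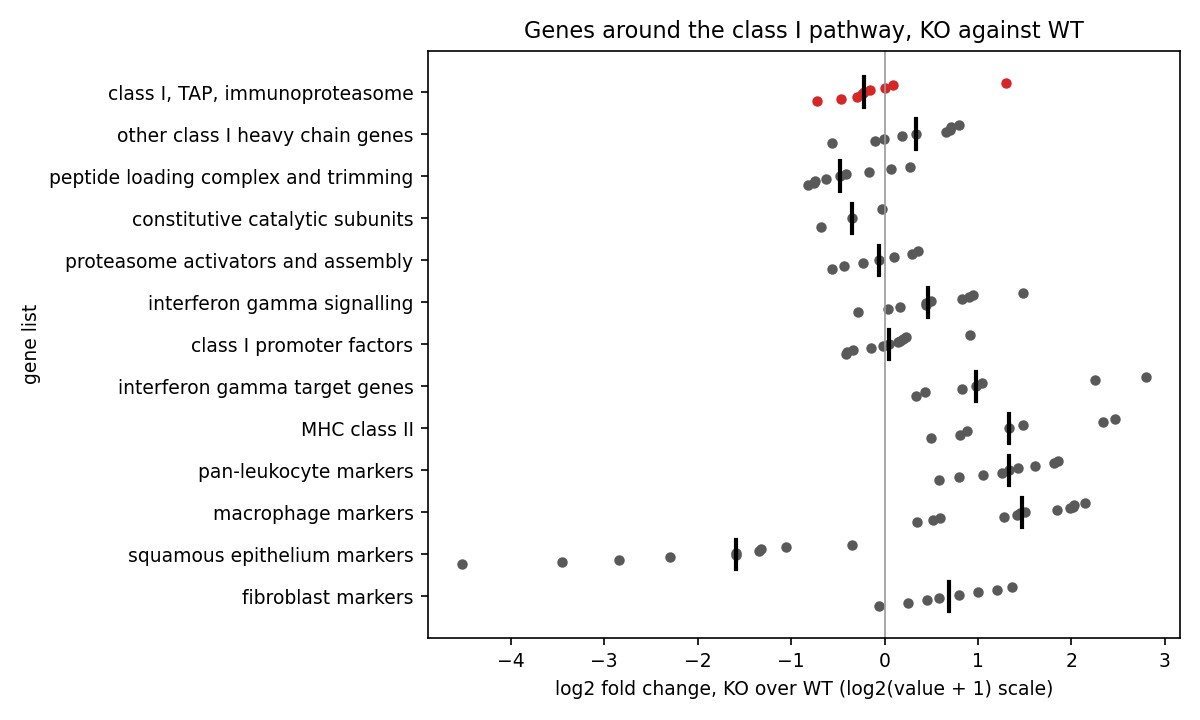
Log2 fold change of KO over WT for the tested genes of each list, 1 point per gene, with the list median as a black bar and the 9 tested class I genes in red. The class I genes have a median of −0.22, while class II genes and leukocyte markers lie to the right of 0 and squamous markers to the left.

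Of the other genes of the class I pathway, none was called by limma, edgeR, DESeq2 or the authors' deposited table, and 0 had an unadjusted limma p under 0.05. Of the further class I heavy chain genes, 12 of 23 sought were listed and 9 tested, with 6 higher and 3 lower in KO (median 0.34, and 0.15 without KO-8). For 2 of the 9, H2-Q6 and Fcgrt, both KO libraries lay above both WT libraries, against 14.5% of all genes. H2-Q6 had 0.193 and 0.953 in WT tumours against 1.76 and 1.55 in KO tumours. Fcgrt had 0.965 and 0.635 in WT tumours against 1.1 and 3.09 in KO tumours. Both rested on 1 to 12 reads per library. H2-T23, which encodes Qa-1, had 28.4 and 11.8 in WT tumours against 13.0 and 11.3 in KO tumours, and H2-T22, a ligand of gamma delta T cells, had 4.44 and 5.72 in WT tumours against 5.72 and 13.4 in KO tumours. H2-Q7, which encodes Qa-2, had 0.386 and 5.72 in WT tumours against 1.76 and 4.38 in KO tumours. The values of H2-T23, H2-T22 and H2-Q7 each overlapped between the groups.

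Peptide loading and trimming genes were lower in KO for 7 of 9 (median −0.48, and −0.22 without KO-8), against 52.5% of all genes lower. In 3 of them both KO libraries lay below both WT libraries, against 19.3% of all genes. Calr, the chaperone calreticulin of the loading complex, had 175 and 187 in WT tumours against 131 and 88.6 in KO tumours (log2 fold change −0.74, SE 0.43, limma adjusted p = 0.927). Pdia3, the disulfide isomerase of that complex, had 90.1 and 98.2 in WT tumours against 71.03 and 43.03 in KO tumours. Erap1, which trims peptides in the endoplasmic reticulum, had 10.04 and 6.04 in WT tumours against 7.92 and 5.93 in KO tumours, with overlap.

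Proteasome activator and assembly genes overlapped between the groups for 7 of 7. Their median was −0.05, which was −0.08 without KO-8 and 0.24 on the scale of total protein-coding reads. Psme1 and Psme2, the subunits of the activator PA28 that interferon gamma induces, had 15.8 and 18.7 against 16.3 and 9.53, and 9.27 and 16.8 against 16.1 and 15.2. Neither followed Psmb8 and Psmb9 in KO-8. Factors of class I promoters, which include the NF-kB subunits Rela, Nfkb1 and Relb, were 6 higher and 5 lower of 11 (median 0.05, and −0.07 without KO-8). Rfx5, a subunit of the X box factor, had 17.0 and 6.35 in WT tumours against 14.7 and 7.22 in KO tumours. Relb, an NF-kB subunit, had 3.28 and 3.18 in WT tumours against 5.06 and 9.53 in KO tumours, without overlap (limma adjusted p = 0.926). It was the only 1 of the 11 with both KO libraries above both WT libraries, against 14.5% of all genes. For 2 of the 11, Rfxap and Rfxank, both KO libraries lay below both WT libraries, against 19.3% of all genes.

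The authors' deposited table called no member either. It gives the smallest p-value among them to Psmb9, at 0.0175 with an adjusted p-value of 0.411 and a log2 fold change of 3.54, and the next to Psmb8, at 0.0755 with 0.709 and 1.59. In the authors' deposited table, 0.749% of the listed genes have an adjusted p-value under 0.05.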

How the data were processed

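RNA was measured in 4 esophageal tumour libraries, isolated by Trizol and made into TruSeq RNA libraries, per the labels' protocols. The 4 deposited columns are a signal, reads times a constant per library: every value is a whole multiple of 1 step per library (100% of values, tolerance 0.001), and 1 read is worth 0.193 in WT-3, 0.318 in WT-6, 0.220 in KO-1 and 0.258 in KO-8. The authors' fold changes are log2 values and their p-value columns come from a test not named, per the file headers. The submitters' processing notes name DESeq and genome build mm9. Aligner, counter and strand are not given in the sources used here.

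Limma 3.58.1 in R 4.3.3 (trended prior, two-sided, genotype only) was fitted to log2(value + 1), a scale on which changes of low genes look smaller. It covered the 12304 genes that reached 1 in 2 or more libraries. P-values were adjusted by Benjamini-Hochberg across all of them, with 0.05 as threshold. Alternatives were other scalings, filters and pseudocounts, edgeR 4.0.16 and DESeq2 1.42.0 on the recovered reads, and each library left out. The scalings to protein-coding reads left out Lars2, which lowered that total from 1289852 to 1121346 reads in WT-6. The code was tested on simulated data. Exon lengths and overlaps came from GENCODE vM21 and promoters from RefSeq, both GRCm38, and were joined by gene identifier or symbol. Genes were named by rule: the members, any gene of lists of up to 12 (a few of each are given as examples), and up to 6 of longer lists by smallest p, with T cell markers named beside it for their counts. One gene that the rule allows is not reported here. The members and lists were chosen with earlier results of these data known.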

Additional observations from a re-analysis of the deposited data

How the results depend on the processing

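No member was called under any of the 12 alternatives. The count over all genes, 1 as reported, was 2 with no filter, 0 with a pseudocount of 0.1, 0 in edgeR's quasi-likelihood test (where S100a14 was not called either) and 47 in DESeq2. With a library left out it ran from 0 to 510: 0 without WT-3 or WT-6, 6 without KO-8 and 510 without KO-1, each fit assuming that the lone library varies like the other genotype. The median of the members ranged from −0.57 to 0.13. With the total of nuclear protein-coding reads as library size, all genes moved up to a median of 0.27, and B2m (0.13), H2-D1 (0.11), Tap2 (0.15) and Tapbp (0.050) changed sign. Relative to that median 6 of 9 members were lower, as in the fit reported. Nlrc5, at 0.00, was −0.067 in edgeR and −0.047 in DESeq2. With each library left out in turn, the values that changed sign ran from −0.82 to 0.39 for B2m, −0.60 to 0.11 for H2-D1, −0.43 to 0.13 for Tap2, −0.31 to 0.49 for Psmb10 and −0.68 to 0.68 for Nlrc5. H2-K1, Tap1 and Psmb8 kept their direction in all 12. With no filter Psmb9 had 1.44 (limma adjusted p = 0.974). The log2 ratio difference of immunoproteasome to constitutive subunits was 1.29 as a mean of pairs with 1 added to each value, and 0.45 to 1.78 with a library left out. The cause of these changes was not tested. No paired analysis was possible because the groups share no replicate number. Depth limits the low members: Psmb9 had 0 to 20 reads, Psmb8 6 to 47, and Tap1, Tap2 and Psmb10 19 to 45.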
